A study of Mus musculus with 12 samples.

Results

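The interferon regulatory factors (IRFs) are a family of transcription factors, and 8 of their genes were followed here: *Irf1*, *Irf2*, *Irf3*, *Irf4*, *Irf5*, *Irf7*, *Irf8* and *Irf9*. They were chosen by gene symbol from 55471 genes in the count table. All 8 passed the filter on low counts, which left 18228 genes for testing. The RNA came from dendritic cells (DCs) grown from the bone marrow of adult female C57BL/6 mice with granulocyte-macrophage colony-stimulating factor. Every culture was transduced with a retrovirus that carried a short hairpin RNA (shRNA) and a human CD8 reporter, on which the cells were then sorted. Control cells carried a hairpin to firefly luciferase (shControl), and knockdown cells (sh*Ppargc1b*) carried one to *Ppargc1b*, whose product PGC-1β is a co-activator of transcription. Cells were left unstimulated or received interferon-β (IFN-β) for 6 h, which gave 4 groups of 3 libraries and 12 libraries in all. The control cells therefore differed from untouched DCs in carrying the vector and in having been sorted. The study had more than one *Ppargc1b* hairpin and relied on one of them for the greater part of its work, but the labels do not say which was sequenced. Nothing in the labels says that the 3 libraries of a group came from separate cultures, so that p-values measure the spread between these libraries, which may be technical. Replicates carry no number in the labels, and the numbers used here follow the order of the records within a group and only name a library.

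All members bind DNA through a related domain that reads repeats of GAAA, the core of the interferon-stimulated response element (ISRE). IRF3 and IRF7 wait in the cytoplasm until kinases of pathogen-sensing pathways phosphorylate them, and then drive type I interferon genes. IRF9 is the DNA-binding part of the complex ISGF3, to which STAT2 also belongs and which carries the signal of the interferon receptor to ISREs. IRF1 activates many of the same genes and IRF2 competes with it for their sites. IRF4 and IRF8 act with partners such as PU.1 in the development of DC subsets, and IRF5 serves inflammatory gene expression below Toll-like receptors. STAT dimers read another short sequence, the interferon-γ-activated site (GAS).

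Promoter windows of 300 bases, from 250 bases before each annotated start site, were available from RefSeq (GRCm38.p6) for all 8 members, in 11 windows. They were searched on both strands for the ISRE core GAAANNGAAA and the GAS core TTCNNNGAA. The ISRE core was in 3.44% and the GAS core in 8.30% of 32851 promoter windows of the same length. Of the 11 windows of the members, 1 held the ISRE core and 3 held the GAS core. The matches lay before the start sites of *Irf1*, *Irf2* and *Irf8*, and they are shown in capitals with up to 15 flanking bases on each side because they are the only matches in these windows. The stretches of *Irf2* overlap each other, as do those of *Irf8*. All are on the plus strand. The match in *Irf1* lies 90 to 82 bases before the start site, at chr11:53769909-53769947. Those in *Irf2* lie 241 to 232 bases (ISRE core, chr8:46739495-46739528) and 224 to 216 bases (GAS core, chr8:46739506-46739544) before it. *Irf8* holds 2 GAS cores, 171 to 163 bases (chr8:120736172-120736210) and 153 to 145 bases (chr8:120736190-120736228) before its start site.
Irf1, GAS core: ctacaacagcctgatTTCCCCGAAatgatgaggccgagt
Irf2, ISRE core: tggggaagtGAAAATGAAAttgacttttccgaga
Irf2, GAS core: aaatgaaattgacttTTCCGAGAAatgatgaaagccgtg
Irf8, first GAS core: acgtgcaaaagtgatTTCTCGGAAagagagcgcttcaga
Irf8, second GAS core: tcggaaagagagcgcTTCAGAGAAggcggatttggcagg
The windows of *Irf3*, *Irf4*, *Irf5*, *Irf7* and *Irf9* held neither set of letters, which says nothing of sites elsewhere. A match is a description of the sequence and not evidence of binding.

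The libraries held 49919648 to 77726101 counts. The targeted gene *Ppargc1b* had levels of 33.4, 33.3 and 36.7 CPM (counts scaled to a common library size) in unstimulated shControl libraries and 18.6, 19.3 and 20.3 in sh*Ppargc1b*, or 56.3% of control. With IFN-β it had 31.4, 23.6 and 28.4 CPM against 19.6, 15.5 and 20.9, or 67.2% of control, and the groups did not overlap in either case. The common size was set by TMM (trimmed mean of M-values), which takes the bulk of genes as not changing. By library totals alone, the median log2 fold change of all genes with IFN-β moved to -0.27 in shControl and -0.22 in sh*Ppargc1b*, so IFN-β effects on members are relative to the bulk of genes. The DC markers were present in every library (summed level of 9 markers 3489 CPM or more), whereas sums for B cell markers (up to 1.20 CPM), T cell markers (up to 2.45 CPM) and erythroid markers (up to 0.295 CPM) were near 0. In bulk RNA, fewer cells of one kind and less RNA per cell cannot be told apart.

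**Figure D1:**
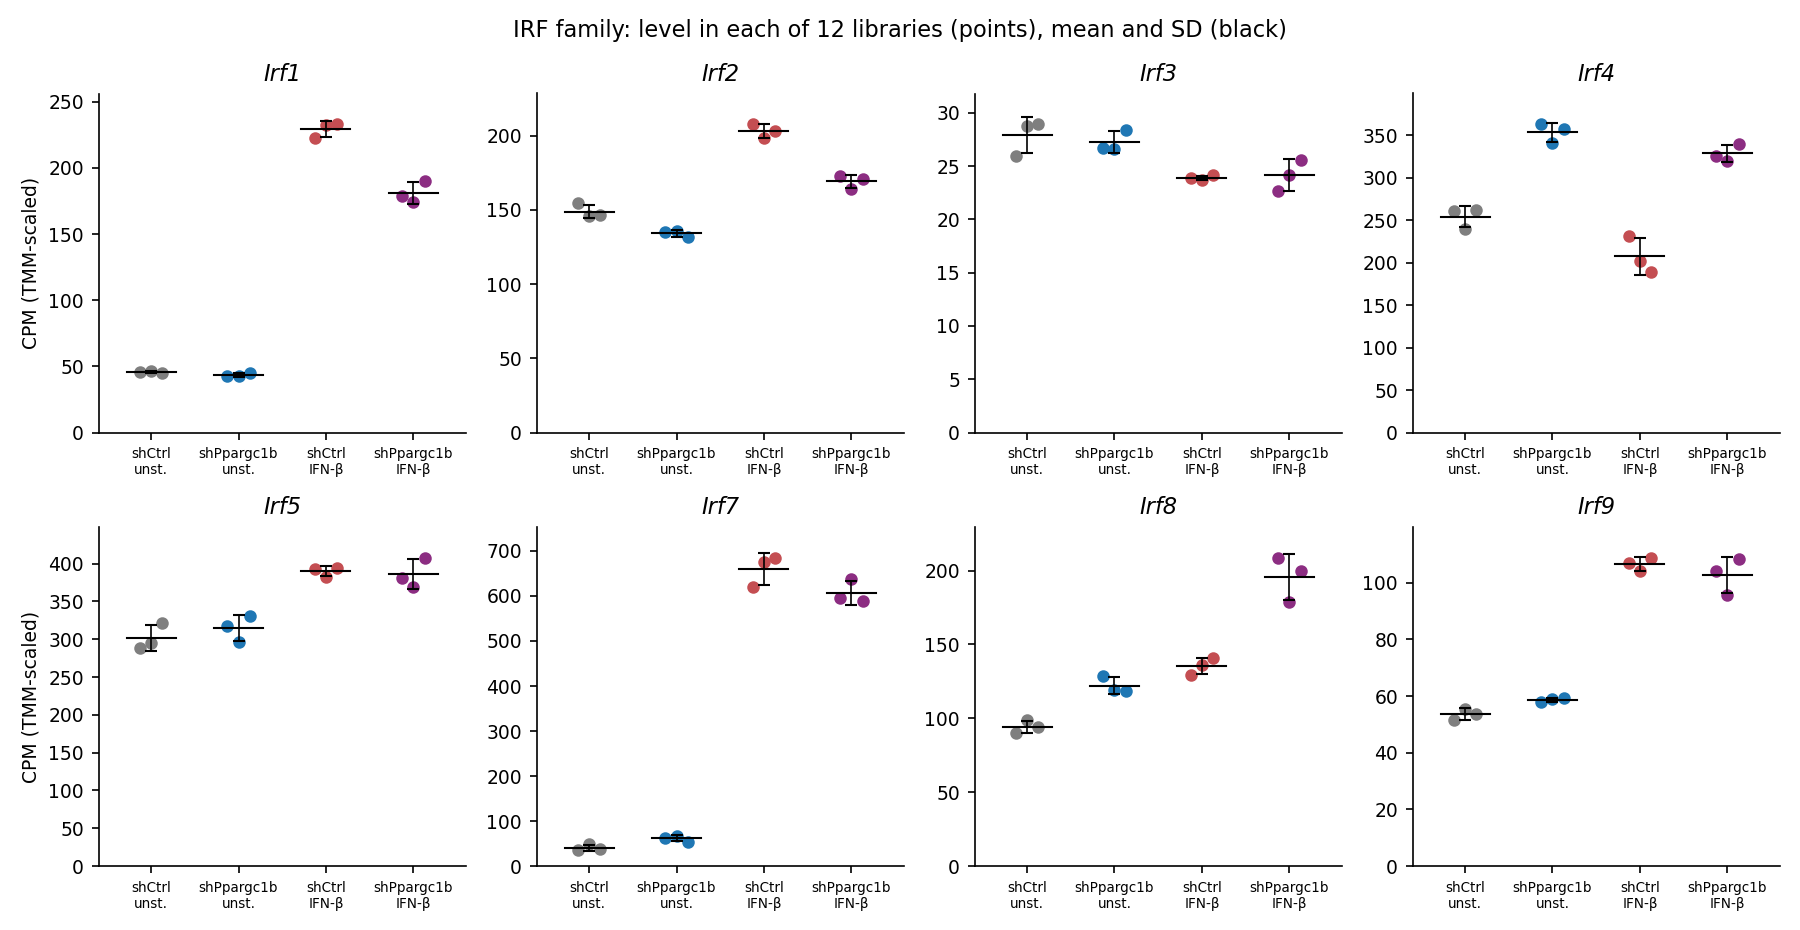
Level of each IRF gene in 12 libraries, in CPM after TMM scaling (y axis, from 0), by group (x axis). Points are libraries, bars are means and error bars are SD (n = 3). *Irf7* rose from between 34.7 and 67.1 CPM to between 588 and 685 CPM with IFN-β, and *Irf4* and *Irf8* were higher in every sh*Ppargc1b* library than in every shControl library of the same treatment.

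The first question was how the family responded to IFN-β. In shControl cells 6 of 8 members rose and 2 fell, with a median log2 fold change of 0.49 against -0.03 over all genes. By the same test (edgeR's quasi-likelihood test, Benjamini-Hochberg adjustment over all genes, threshold 0.05), 23.7% of all genes were called higher and 24.6% lower. In sh*Ppargc1b* cells 6 members rose and 1 fell (median 0.51 against -0.02), where 21.4% of all genes were called higher and 21.2% lower. The risers were *Irf1*, *Irf2*, *Irf5*, *Irf7*, *Irf8* and *Irf9* in both. *Irf3* fell in both and *Irf4* was called lower in shControl. By library totals, the calls over all genes became 2598 higher and 8294 lower in shControl, from 4312 and 4481, and 2340 and 7551 in sh*Ppargc1b*, from 3895 and 3865.

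The second question was what the knockdown did to the family at each treatment. Without stimulation, *Irf4*, *Irf7* and *Irf8* were higher in sh*Ppargc1b* and *Irf2* was lower, so that 3 of 8 members were called higher and 1 lower beside 12.4% and 11.1% of all genes. With IFN-β, *Irf4* and *Irf8* were higher and *Irf1* and *Irf2* lower, which makes 2 and 2 of 8 beside 11.5% and 12.7%. Averaged over both treatments, 3 members (*Irf4*, *Irf7* and *Irf8*) were called higher and 2 (*Irf1* and *Irf2*) lower beside 17.4% and 17.7% of all genes. The members' median knockdown effects were 0.10, -0.04 and 0.03 on the log2 scale in these 3 comparisons, against medians of -0.00, -0.01 and -0.01 over all genes. The knockdown comparison without stimulation shares its shControl libraries with the IFN-β comparison in shControl, and the same holds for each other such pair.

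**Figure D2:**
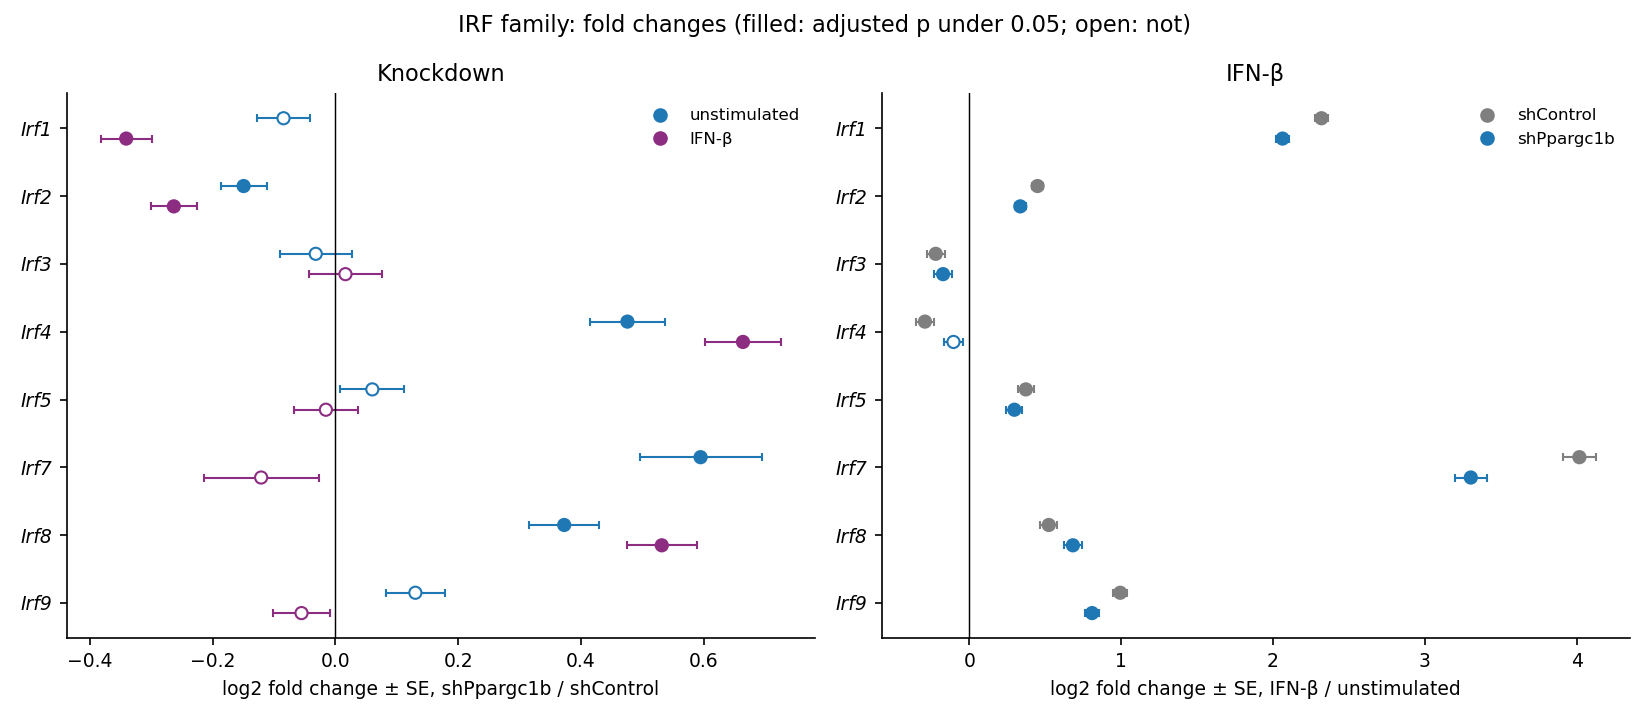
Log2 fold change ± SE (x axis) of each IRF gene (y axis) for knockdown at each treatment (left) and for IFN-β in each kind of cell (right). Filled points passed the threshold of 0.05 on the adjusted p-value and open points did not. For *Irf7* the knockdown effect is 0.59 without stimulation and -0.12 with IFN-β.

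*Irf7* (ENSMUSG00000025498, chr7:141262706-141266481, minus strand) encodes the interferon-inducible amplifier of type I interferon production, and it had the largest IFN-β response of the family. Its CPM in shControl was 34.7, 48.7 and 38.7 without stimulation and 619.8, 675 and 685 with IFN-β. In sh*Ppargc1b* it was 63.1, 67.1 and 54.4 without stimulation and 595, 638 and 588 with IFN-β. Every unstimulated knockdown library was thus above every unstimulated control, whereas the ranges overlapped with IFN-β. IFN-β raised *Irf7* 16.2-fold in shControl (log2 4.02 ± 0.11 SE, adjusted p = 6.3e-14) and 9.87-fold in sh*Ppargc1b* (log2 3.30 ± 0.10, adjusted p = 5.45e-13). Knockdown raised it by 0.59 ± 0.10 without stimulation (adjusted p = 0.000397), and the log2 difference was 0.46, 0.49 and 0.86 within the 3 runs of consecutive library codes, each of which holds 1 library of every group. With IFN-β the difference was -0.12 ± 0.09 (adjusted p = 0.399). Plasmacytoid DC markers, from a cell type that makes much IFN-α and expresses *Irf7*, had a summed level of 91.9 to 116 CPM in unstimulated shControl and 139 to 164 CPM in unstimulated sh*Ppargc1b*, and of 201 to 218 and 216 to 224 CPM with IFN-β. Of the 6 markers 4 could be tested, and 1 was called higher with knockdown without stimulation and 0 with IFN-β, beside 12.4% and 11.5% of all genes. Most of that sum was *Tcf4*, while the defining marker *Siglech* had 0 to 4 counts per library, and the part of such cells in the *Irf7* level was not tested.

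*Irf3* (ENSMUSG00000003184, chr7:44997648-45002848, plus strand) encodes the constitutive partner of IRF7 in the first wave of interferon production. Its CPM in shControl was 25.9, 28.8 and 28.9 without stimulation and 23.8, 23.7 and 24.1 with IFN-β. The groups did not overlap, and *Irf3* fell by 0.22 ± 0.06 on the log2 scale (adjusted p = 0.00564). In sh*Ppargc1b* it was 26.7, 26.6 and 28.4 CPM and then 22.7, 24.2 and 25.6 CPM, a fall of 0.17 ± 0.06 (adjusted p = 0.0268) that lost its call in a fit of these groups alone (0.0512) and without any one of 3 libraries: unstimulated replicate 3 (adjusted p = 0.116), IFN-β replicate 1 (0.129) or IFN-β replicate 2 (0.0609) of sh*Ppargc1b*. The knockdown difference was -0.03 ± 0.06 without stimulation (95% interval -0.15 to 0.08) and 0.02 ± 0.06 with IFN-β (-0.10 to 0.13). Of its exon bases, 2.56% lie opposite exons of *Bcl2l12*, and whether counting used strand is not known.

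*Irf9* (ENSMUSG00000002325, chr14:55603571-55610030, plus strand) encodes the DNA-binding subunit of ISGF3. Its CPM in shControl was 51.4, 55.6 and 53.8 without stimulation and 107, 104 and 109 with IFN-β, a rise of 0.99 ± 0.05 (adjusted p = 7.59e-11). In sh*Ppargc1b* it was 57.8, 58.9 and 59.3 and then 104, 95.6 and 108, a rise of 0.81 ± 0.05 (adjusted p = 1.26e-09). Unstimulated knockdown libraries were all above unstimulated controls, by 0.13 ± 0.05, but the adjusted p was 0.0605. That difference passed with a block for runs of library codes (0.0405). It also passed without unstimulated replicate 2 of shControl (0.0494) or IFN-β replicate 2 of sh*Ppargc1b* (0.0274). With IFN-β the ranges overlapped and the difference was -0.06 ± 0.05 (adjusted p = 0.442). *Irf9* shares 2.28% of its exon bases with *Rnf31* on the same strand.

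*Irf1* (ENSMUSG00000018899, chr11:53770014-53778374, plus strand) encodes an activator that is induced early by interferons, and the window before its start site holds the GAS core shown above. Its CPM in shControl was 46.1, 46.9 and 44.9 without stimulation and 222, 232 and 233 with IFN-β. In sh*Ppargc1b* it was 42.5, 42.5 and 44.9 without stimulation and 179, 174 and 190.4 with IFN-β. Control and knockdown met at 44.9 CPM without stimulation and were well apart with IFN-β. *Irf1* rose 4.99-fold in shControl (log2 2.32 ± 0.04, adjusted p = 2.73e-15) and 4.18-fold in sh*Ppargc1b* (log2 2.06 ± 0.04, adjusted p = 1.04e-14). With IFN-β, knockdown cells held 79.0% of the control level (log2 -0.34 ± 0.04, adjusted p = 2.62e-05), whereas without it the difference was -0.08 ± 0.04 (adjusted p = 0.191).

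*Irf2* (ENSMUSG00000031627, chr8:46739732-46847458, plus strand) encodes the competitor of IRF1 and is the only member with an ISRE core in its window. Its CPM in shControl was 154, 146 and 146 without stimulation and 208, 198 and 203 with IFN-β. In sh*Ppargc1b* it was 135, 136 and 132 and then 173, 164 and 171. The 4 groups did not overlap, and the knockdown libraries were below the controls at both treatments. The rise with IFN-β was 0.45 ± 0.04 in shControl (adjusted p = 7.24e-08), and sh*Ppargc1b* cells rose by 0.33 ± 0.04 (adjusted p = 2.89e-06). Knockdown lowered it: the difference was -0.15 ± 0.04 without stimulation (adjusted p = 0.00865), and under IFN-β it was -0.26 ± 0.04 (adjusted p = 0.000102). The first of these calls was lost without unstimulated shControl replicate 1 (adjusted p = 0.0519) and with no filter on low counts (0.0994).

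*Irf4* (ENSMUSG00000021356, chr13:30749226-30766976, plus strand) encodes a factor of type 2 conventional DCs and of DC migration, and it was higher with knockdown at both treatments. Its CPM without stimulation was 261, 239.9 and 262 in shControl and 363, 341 and 357 in sh*Ppargc1b*. With IFN-β it was 232, 202 and 189 in shControl and 326, 320.2 and 340.1 in sh*Ppargc1b*. All knockdown libraries were above all control libraries, whatever the treatment. The log2 difference was 0.48 ± 0.06 without stimulation (adjusted p = 3.91e-05), and under IFN-β it was 0.66 ± 0.06 (adjusted p = 2.46e-06). *Irf4* fell with IFN-β in shControl, with a log2 fold change of -0.29 ± 0.06 (adjusted p = 0.000942). In sh*Ppargc1b* the change was -0.11 ± 0.06 (adjusted p = 0.189), which became -0.31 and passed (adjusted p = 0.000833) by library totals.

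*Irf8* (ENSMUSG00000041515, chr8:120736358-120756694, plus strand) encodes a factor of type 1 conventional and plasmacytoid DCs, and 2 GAS cores lie before its start site. Its CPM without stimulation was 90.2, 98.6 and 93.8 in shControl and 129, 119 and 118 in sh*Ppargc1b*. With IFN-β it was 129.6, 136 and 140.5 in shControl and 209, 179 and 199 in sh*Ppargc1b*. Knockdown raised it by 0.37 ± 0.06 without stimulation (adjusted p = 0.000182), and under IFN-β by 0.53 ± 0.06 (adjusted p = 8.23e-06), with no overlap between the groups at either treatment. The rise with IFN-β was 0.52 ± 0.06 in shControl (adjusted p = 1.61e-06), and sh*Ppargc1b* cells rose by 0.68 ± 0.06 (adjusted p = 9.54e-08). *Irf8* thus rose both with knockdown and with IFN-β, whereas *Irf4* rose with knockdown and fell with IFN-β in shControl.

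The mean sum of DC markers was higher with knockdown at both treatments, as were *Irf4* and *Irf8*. In shControl that sum rose with IFN-β (mean 3766 to 4263 CPM), whereas *Irf4* fell. The summed level of 9 DC markers was 3489 to 4097 CPM in unstimulated shControl and 4103 to 4686 CPM in sh*Ppargc1b*, and with IFN-β it was 3926 to 4688 and 4659 to 5320 CPM. Most of that sum was *Cd74*, whose ranges overlapped without stimulation (1905 to 2290 CPM in shControl and 2112 to 2558 CPM in sh*Ppargc1b*). Of these 9 markers, 6 were called higher with knockdown without stimulation and 7 with IFN-β, beside 12.4% and 11.5% of all genes. RNA of *Ccr7*, the chemokine receptor of migratory DCs, was higher by 1.32 ± 0.07 and 1.36 ± 0.07. By flow cytometry, a measure of protein, the study reported CCR7 as generally reduced in knockdown cells. The sums of 6 macrophage markers were 863 to 943 CPM in unstimulated shControl and 749 to 763 CPM in unstimulated sh*Ppargc1b*. *Mrc1*, the mannose receptor, fell by 1.51 ± 0.11, from a mean of 307 to 107 CPM, which is more than the mean sum changed (895 to 755 CPM). *Mertk* was also called lower without stimulation and *Cd14* higher (0.44 ± 0.06), and the median of the 6 was 0.12. In all, 1 was called higher and 2 lower there, beside 12.4% and 11.1% of all genes. With IFN-β the sums were 1201 to 1281 CPM in shControl and 1002 to 1057 CPM in sh*Ppargc1b*. Under it 1 was called higher and 3 lower, beside 11.5% and 12.7% of all genes, with a median of -0.10. Markers of type 1 DCs (257 to 264 against 227 to 246 CPM) and type 2 DCs (1190 to 1260.5 against 1040 to 1088 CPM) summed lower in unstimulated knockdown cells. There 1 of 6 and 2 of 4 tested were called lower and 0 higher, beside 11.1% of all genes lower and 12.4% higher. The sum of 5 neutrophil markers was higher (33.8 to 64.7 against 68.5 CPM or more), but of them only *S100a8* passed (0.83 ± 0.26), *Elane*, *Mpo* and *Ly6g* had values of -1.46, -0.92 and -0.42, and the median was -0.42. Mast cell or basophil markers summed to 2.29 to 9.01 CPM in unstimulated shControl and 6.59 to 11.3 CPM in unstimulated sh*Ppargc1b*. Of these 5 markers, 1 was called higher and 0 lower with knockdown at each treatment. The shares of all genes called higher were 12.4% and 11.5%. The part of cell makeup in the levels of *Irf4* and *Irf8* was not tested.

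*Irf5* (ENSMUSG00000029771, chr6:29526625-29541871, plus strand) encodes a factor of inflammatory cytokine expression. Its CPM in shControl was 289, 295 and 321 without stimulation and 394, 383 and 395 with IFN-β. In sh*Ppargc1b* it was 318, 296 and 330.3 and then 382, 369 and 408. Control and knockdown ranges overlapped at each treatment, with differences of 0.06 ± 0.05 (95% interval -0.04 to 0.16) and -0.02 ± 0.05 (-0.12 to 0.09). It rose with IFN-β by 0.37 ± 0.05 in shControl (adjusted p = 2.17e-05), and sh*Ppargc1b* cells showed a rise of 0.30 ± 0.05 (adjusted p = 0.00025). The second rise was 0.09 and lost its call by library totals (adjusted p = 0.170). Of its exon bases, 14.1% lie opposite exons of *Tnpo3*, which had 3273 to 6237 counts per library.

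The third question was whether the knockdown effect differed with IFN-β. *Irf7* was the only member past the threshold for this difference, at -0.72 ± 0.14 on the log2 scale (95% interval -0.98 to -0.45, adjusted p = 0.0244): its knockdown effect was higher without IFN-β than with it. This makes 0 of 8 members called higher and 1 lower, beside 0.0603% and 0.669% of all genes. The call was lost when any one of 7 libraries was left out, with adjusted p-values of 0.0606 to 0.119. These were unstimulated replicates 1 and 3 and IFN-β replicates 2 and 3 of shControl, and unstimulated replicates 1 and 2 and IFN-β replicate 3 of sh*Ppargc1b*. The value itself stayed between -0.85 and -0.59 under all alternatives. *Irf1* followed at -0.26 ± 0.06 (adjusted p = 0.0673), and it passed with DESeq2 (0.00706), with no filter on low counts (0.0318), with a replicate block (0.0228) and without IFN-β replicate 3 of sh*Ppargc1b* (0.0415). The other members lay between -0.19 (*Irf9*, adjusted p = 0.288) and 0.19 (*Irf4*, adjusted p = 0.465), and the median of the 8 was -0.09 against -0.00 over all genes.

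**Figure D3:**
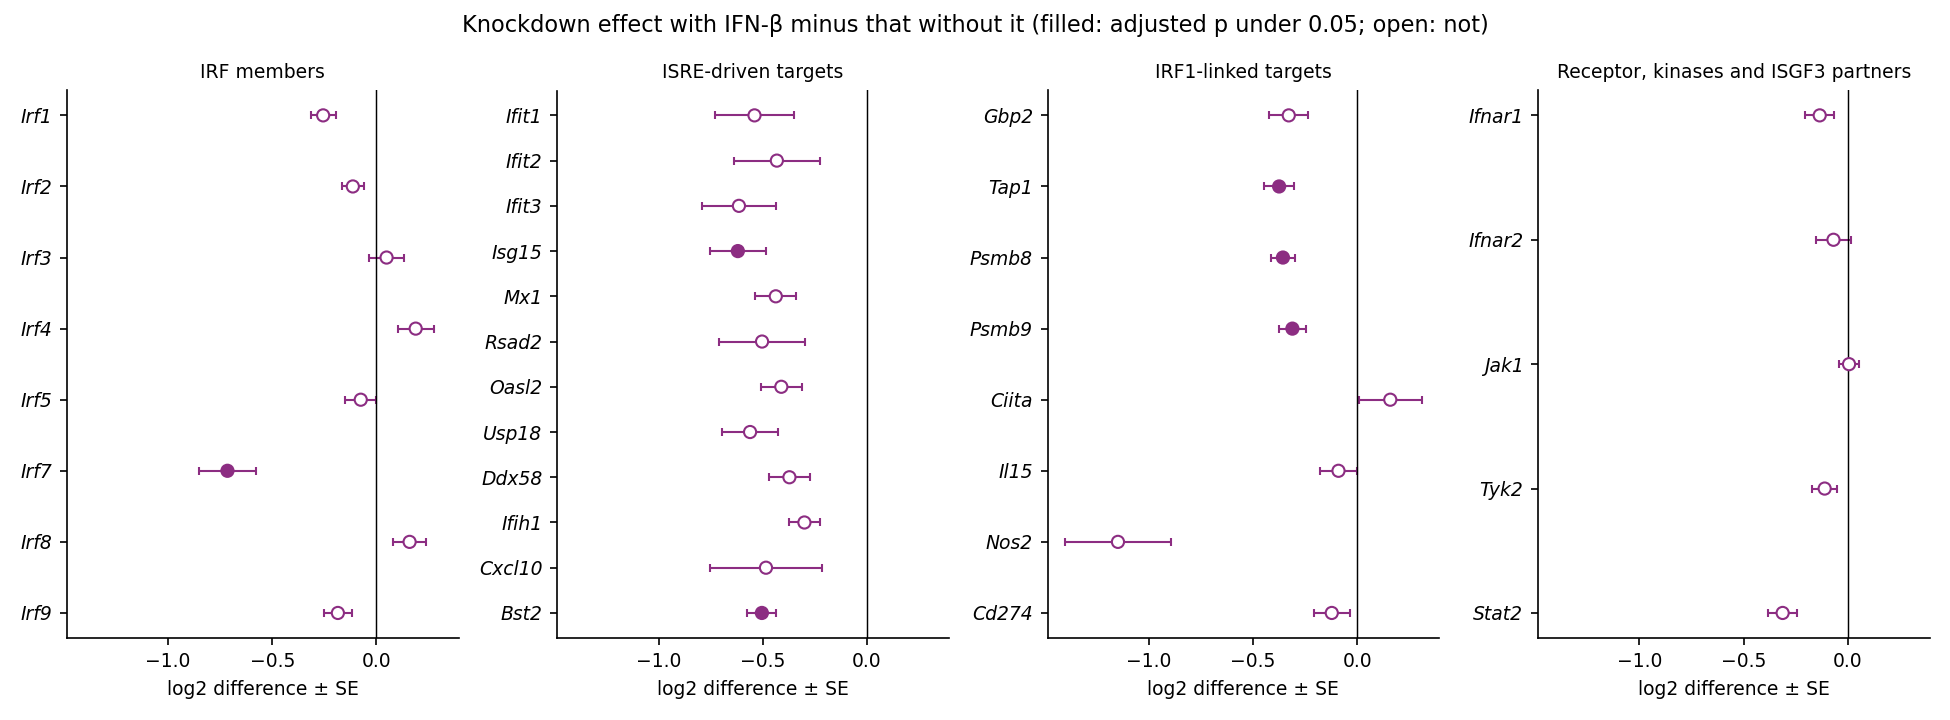
Knockdown effect with IFN-β minus the effect without it (x axis, log2 ± SE) for the IRF genes, ISRE-driven targets, IRF1-linked targets, and the receptor, kinases and ISGF3 partners (y axes). Filled points passed the threshold on the adjusted p-value. *Irf7* lies at -0.72, and all 12 ISRE-driven targets lie below 0, of which 2 passed.

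Levels were compared between members per kilobase of exon. In unstimulated shControl the order was *Irf5* (104 CPM per kb), *Irf4* (51.9), *Irf2* (20.1), *Irf8* (13.4), *Irf1* (11.6), *Irf7* (10.8), *Irf9* (9.95) and *Irf3* (8.10), in which *Irf1*, *Irf7* and *Irf9* overlapped with their neighbours. With IFN-β *Irf7* moved from the sixth place to the first (175 CPM per kb), ahead of *Irf5* (134), *Irf1* (57.7), *Irf4* (42.4), *Irf2* (27.5), *Irf9* (19.8) and *Irf8* (19.2), and *Irf3* stayed last (6.94). Of these neighbours, *Irf9* and *Irf8* overlapped. In sh*Ppargc1b* the unstimulated order began with *Irf5* (108) and *Irf4* (72.2), followed by *Irf2* (18.2), *Irf8* (17.3) and *Irf7* (16.3), which overlapped as neighbours, then *Irf1* and *Irf9* (10.9 each, overlapping) and *Irf3* (7.92). With IFN-β it was *Irf7* (161), *Irf5* (133), *Irf4* (67.1), *Irf1* (45.5), *Irf8* (27.7), *Irf2* (22.9), *Irf9* (19.1) and *Irf3* (7.02), with no overlap between neighbours. *Irf7* made up 4.69% of the summed level of the 8 genes in unstimulated shControl and 36.2% with IFN-β, against 6.22% and 33.3% in sh*Ppargc1b*. The order depended on the length used. Per base of the longest transcript, 5, 4, 4 and 6 of 8 members kept their rank in unstimulated shControl, unstimulated sh*Ppargc1b*, shControl with IFN-β and sh*Ppargc1b* with IFN-β. By that length *Irf7* (12.6 CPM per kb) and not *Irf3* (13.7) was last in unstimulated shControl, and *Irf1* (84.7) stood above *Irf4* (69.0) in sh*Ppargc1b* with IFN-β.

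**Figure D4:**
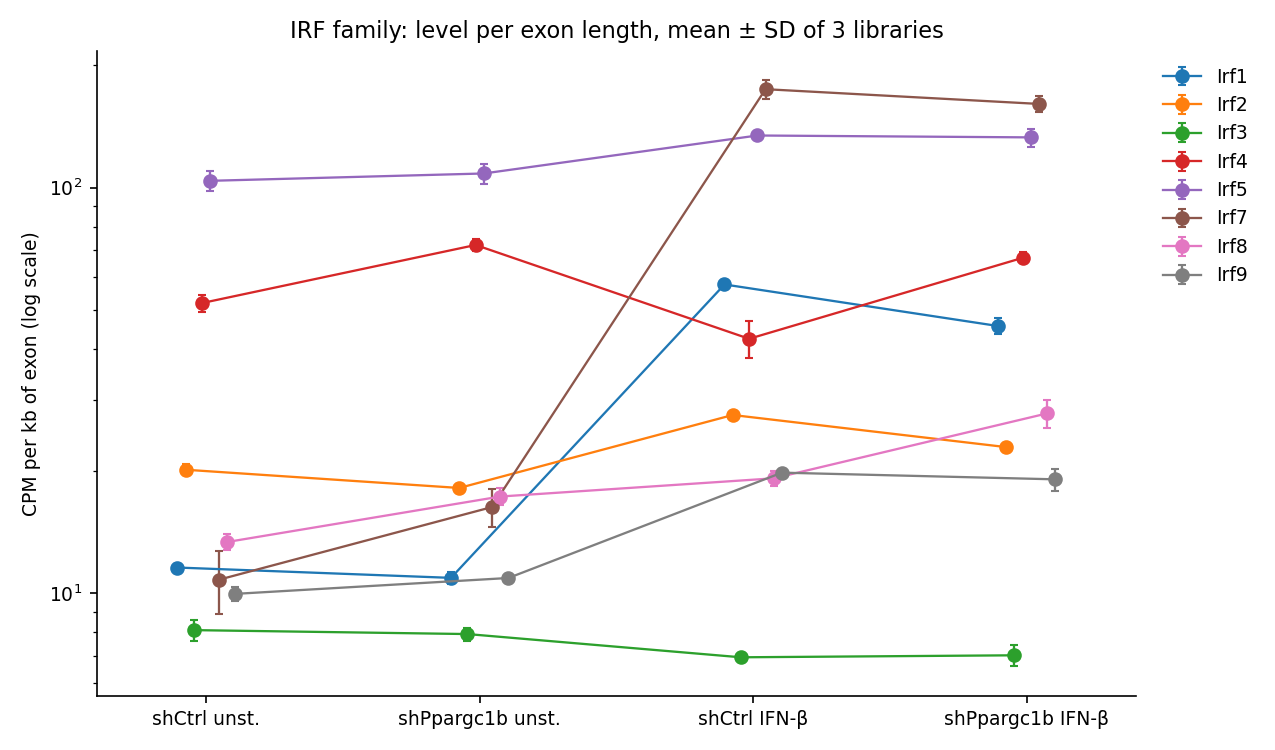
Level of each IRF gene per kilobase of exon (y axis, log scale) in the 4 groups (x axis). Points are means and bars SD of 3 libraries. *Irf7* rose from 10.8 to 175 CPM per kb with IFN-β in shControl, and *Irf3* was lowest in every group by this length, though not per base of the longest transcript in unstimulated shControl.

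Ratios of paired members within a library do not depend on library scaling. The count ratio of *Irf4* to *Irf8*, which favour different DC subsets, averaged 2.7 and 2.90 in unstimulated shControl and sh*Ppargc1b*, and 1.53 and 1.68 with IFN-β. Each knockdown difference of a ratio is the mean over both treatments, and each IFN-β difference the mean over both kinds of cell. By an exact two-sided permutation test within strata (400 arrangements, smallest possible p = 0.005), the IFN-β difference was -0.80 on the log2 scale (p = 0.005, 0.01 after Benjamini-Hochberg adjustment over 6 tests). The knockdown difference was 0.12 (exact permutation p = 0.125, adjusted 0.174). The ratio of *Irf1* to its competitor *Irf2* went from 0.309 and 0.323 to 1.13 and 1.07, an IFN-β difference of 1.80 (exact permutation p = 0.005, adjusted 0.01) and a knockdown difference of -0.01 (exact permutation p = 0.875). Both members were lower with knockdown under IFN-β, where the log2 ratio was 0.10 to 0.23 in shControl and 0.05 to 0.16 in sh*Ppargc1b*. Without stimulation it was -1.74 to -1.64 and -1.68 to -1.55. The ranges overlapped at each treatment, and the means moved in opposite directions, which the -0.01 averages. The ratio of inducible *Irf7* to constitutive *Irf3* went from 1.45 and 2.25 to 27.6 and 25.1, with an IFN-β difference of 3.87 (exact permutation p = 0.005, adjusted 0.01) and a knockdown difference of 0.25 (exact permutation p = 0.145, adjusted 0.174). That 0.25 averages opposite directions. Without stimulation the log2 ratio was 0.42 to 0.76 in shControl and 0.94 to 1.33 in sh*Ppargc1b*. With IFN-β it was 4.70 to 4.83 and 4.52 to 4.72.

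**Figure D5:**
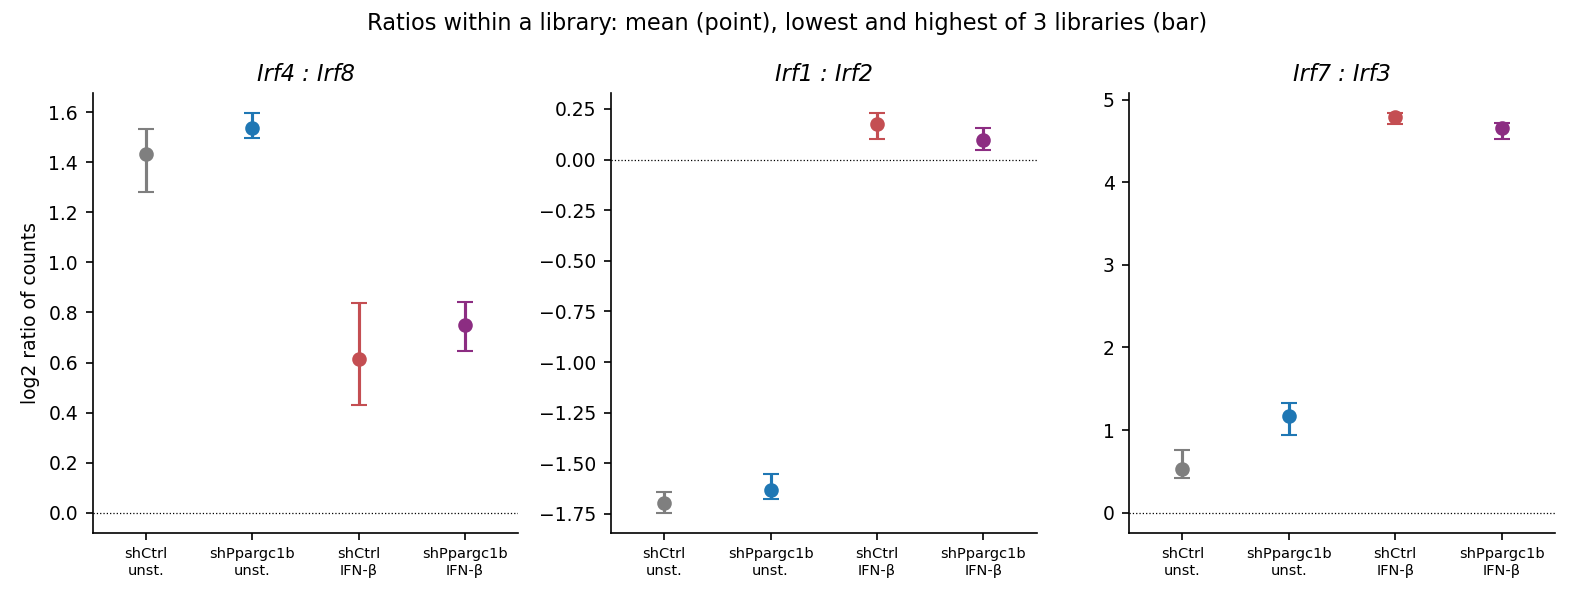
Log2 ratio of the counts of 2 IRF genes within each library (y axis) by group (x axis). Points are means and bars reach from the lowest to the highest of 3 libraries. The ratio of *Irf4* to *Irf8* falls with IFN-β, from 2.7 to 1.53 in shControl, while that of *Irf7* to *Irf3* rises from 1.45 to 27.6.

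The genes around the family were described by lists of pathway genes. Of 13 activating kinases and adaptors, 9 rose and 2 fell with IFN-β in shControl, beside 23.7% and 24.6% of all genes. In sh*Ppargc1b* 8 rose and 1 fell, beside 21.4% and 21.2% of all genes. *Tbk1*, which phosphorylates IRF3 and IRF7, rose by 0.69 ± 0.04 and 0.52 ± 0.04, and its relative *Ikbke* by 0.83 ± 0.05 and 0.68 ± 0.05. *Myd88*, the adaptor of Toll-like receptors, rose by 0.95 ± 0.06 and 0.81 ± 0.06, whereas *Irak1* below it fell by 0.28 ± 0.04 and 0.31 ± 0.04. With knockdown, 1 was higher and 3 were lower without stimulation (12.4% and 11.1% of all genes), and 0 and 6 with IFN-β (11.5% and 12.7% of all genes), among them *Ikbke* (-0.19 ± 0.05 and -0.34 ± 0.05), *Irak4* (-0.24 ± 0.04 and -0.21 ± 0.04) and *Mavs*, the adaptor of cytosolic RNA sensing (-0.28 ± 0.05 and -0.18 ± 0.05). The list's median knockdown effects were -0.01 and -0.12. None of the 13 passed for the difference between treatments in the edgeR fit.

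The partners of IRF9 also rose. All 5 genes listed of the receptor, its kinases and ISGF3 rose with IFN-β in both kinds of cell. The shares of all genes called higher were 23.7% in shControl and 21.4% in sh*Ppargc1b*. *Stat2* rose by 2.66 ± 0.05 in shControl and 2.35 ± 0.05 in sh*Ppargc1b*. It was higher with knockdown without stimulation, by 0.21 ± 0.05 (adjusted p = 0.00479), and was the 1 gene of the list called higher there, beside 12.4% of all genes. With IFN-β its knockdown difference was -0.10 ± 0.05 (adjusted p = 0.169), and the difference between treatments did not pass (-0.31 ± 0.07, adjusted p = 0.0534). *Tyk2*, a kinase of the receptor, was the 1 gene of the list called lower with knockdown under IFN-β (-0.16 ± 0.04), beside 12.7% of all genes.

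Of 9 partners of IRF4 and IRF8, 1 was called higher and 0 lower with knockdown without stimulation, and 1 and 1 with IFN-β, beside 12.4% and 11.1%, and 11.5% and 12.7%, of all genes. *Spi1*, which encodes PU.1, differed by 0.05 ± 0.06 and 0.03 ± 0.06, and *Batf3*, a factor of type 1 DCs, by -0.11 ± 0.13 and -0.13 ± 0.13 (adjusted p of 0.521 or more in all 4). *Jund* was the 1 called higher, at 0.26 ± 0.06 and 0.30 ± 0.06, and *Batf2* was the 1 called lower, at -0.32 ± 0.08 with IFN-β, with -0.24 ± 0.10 without it (adjusted p = 0.0824). IFN-β raised 4 and lowered 2 of the 9 in shControl, beside 23.7% and 24.6% of all genes. The changes ran from 3.06 ± 0.09 for *Batf2* to -0.82 ± 0.11 for *Batf*. Of 7 binding and turnover proteins, the corepressor gene *Irf2bp2* was lower with knockdown at both treatments (-0.27 ± 0.04 and -0.28 ± 0.04), as was *Irf2*, while the related *Irf2bpl* was higher (0.46 ± 0.09 and 0.33 ± 0.09). *Trim21*, which marks IRFs with ubiquitin, rose with IFN-β by 2.60 ± 0.05 and 2.28 ± 0.05 and was lower with knockdown under IFN-β (-0.33 ± 0.05).

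Of 7 type I interferon genes, *Ifnb1* alone had enough counts to be tested. It had 0 to 6 counts per library without stimulation, and 15 to 24 with IFN-β. It rose with IFN-β in both kinds of cell by that test (adjusted p = 0.000151 and 0.000414). Its knockdown differences had adjusted p-values of 0.229 and 0.616 by the same test, and at these counts differences smaller than those with IFN-β may go undetected.

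ISRE-driven targets, the genes through which ISGF3 and other IRFs act, responded to IFN-β without exception. All 12 rose with IFN-β in both kinds of cell, beside 23.7% of all genes called higher in shControl and 21.4% in sh*Ppargc1b*. Their median was 4.53 in shControl and 3.94 in sh*Ppargc1b*, led by *Cxcl10* (6.44 ± 0.22 and 5.96 ± 0.21), *Ifit2* (6.17 ± 0.18 and 5.74 ± 0.17) and *Ifit3* (5.92 ± 0.15 and 5.31 ± 0.14). Without stimulation 5 of 12 were higher with knockdown and 0 lower, beside 12.4% and 11.1% of all genes (median 0.24), as was *Irf7*, with *Bst2* at 0.58 ± 0.05, *Usp18* at 0.58 ± 0.10 and *Ifit3* at 0.51 ± 0.14. With IFN-β 0 were higher and 4 lower, beside 11.5% and 12.7% (median -0.20), with *Cxcl10* at -0.60 ± 0.16 and *Mx1* at -0.30 ± 0.07. The difference between treatments passed for 2, *Isg15* (-0.62 ± 0.13, adjusted p = 0.0489) and *Bst2* (-0.50 ± 0.07, adjusted p = 0.00447), beside 0.669% of all genes called lower, and the median of the 12 was -0.49. That count depended on the processing: it was 7 with DESeq2, 8 with a replicate block, 12 with no filter on low counts and 1 by library totals. It was 4 without unstimulated replicate 1 of sh*Ppargc1b*, 10 without unstimulated replicate 2 of shControl, and 1 without 9 of the other libraries in turn.

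Of 8 IRF1-linked targets, 7 rose with IFN-β in each kind of cell, beside 23.7% of all genes in shControl and 21.4% in sh*Ppargc1b*. *Gbp2*, a guanylate-binding protein, rose most, by 3.81 ± 0.07 and 3.48 ± 0.07, and was lower with knockdown under IFN-β (-0.46 ± 0.07), as was *Irf1*. *Il15* was lower with knockdown at both treatments (-0.32 ± 0.06 and -0.41 ± 0.06). *Tap1* (0.26 ± 0.05) and *Psmb8* (0.20 ± 0.04), of antigen processing, and *Nos2*, the inducible nitric oxide synthase (0.95 ± 0.18), were higher with knockdown without stimulation. In all, 4 were higher and 1 lower without stimulation (12.4% and 11.1% of all genes), and 0 and 4 with IFN-β (11.5% and 12.7%), with medians of 0.16 and -0.15. The difference between treatments was called higher for 0 and lower for 3, beside 0.0603% and 0.669% of all genes: *Tap1* (-0.38 ± 0.07), *Psmb8* (-0.36 ± 0.06) and *Psmb9* (-0.31 ± 0.06), whereas *Nos2* had the largest value of the list (-1.15 ± 0.25, adjusted p = 0.0517). The count was 5 with DESeq2, with a replicate block and with no filter, 1 by library totals, and 0 to 4 with 1 library left out, the 0 without unstimulated replicate 3 of shControl.

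Genes with patterns like a member's were sought among 11786 genes with a mean log2 CPM of at least 1, by the root mean square difference of the 4 centred group means on the log2 scale. Nearest to *Irf7* was *Cd40*, a costimulatory receptor (0.0680), and 5 genes lay within 0.1. Nearest to *Irf1* was *1600014C10Rik* (0.0424, 19 genes within 0.1), to *Irf8* *Aldh1a2*, a retinoic acid-producing enzyme (0.0230, 29 genes), and to *Irf4* *Col12a1*, a collagen (0.0100, 69 genes). *Irf9* was closest to *Lrrc63* (0.0148, 163 genes) and *Irf2* to the adaptor gene *Crkl* (0.00647, 617 genes). *Irf5* was nearest to *Mocos* (0.00771, 1195 genes) and *Irf3* to the histone methyltransferase gene *Ehmt1* (0.00226, 2655 genes). These are distances over 4 group means of the same libraries and carry no test.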

How the data were processed

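The authors prepared ribosome-depleted RNA libraries from 12 DC samples, sequenced read pairs, and deposited raw counts per gene. The submitters' processing notes name Trim Galore 0.6.0 and STAR 2.7.8a, and per the study's methods STAR counted reads per GENCODE gene on mm10. The deposited counts are whole numbers with no normalization, and the strand setting of the counting is not given in the sources used here. A single table held all 12 libraries, and all its value columns were used.

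The test was that of edgeR 4.0.16 (R 4.3.3). Genes were kept by filterByExpr (minimum count 10, minimum total 15), which left 18228 genes with 99.96% of counts, and library sizes were scaled by TMM. One quasi-likelihood model, with a mean for each of 4 groups, took in all 12 libraries. Each contrast had a quasi-likelihood F-test, and Benjamini-Hochberg adjustment covered every gene tested (threshold 0.05). CPM, SE of log2 fold changes and SD over 3 libraries are given. Ratios were compared by exact permutation in Python 3.11.15 with scipy 1.17.1, on counts with 0.5 added. Alternatives were library totals, relative log expression factors, DESeq2 1.42.0, no filter, the compared groups alone, a block for runs of library codes, and leaving out each library. Library depth was 49919648 to 77726101 counts, and no member had fewer than 1104 counts in any library.

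Positions and exon lengths came from GENCODE annotation of GRCm38, a later release than the authors' own, and promoters from RefSeq. The members and the gene lists, written by hand, were chosen with earlier results of these data known. Named genes were the members, *Ppargc1b*, up to 3 genes per list and contrast with the largest change past the threshold, the partners *Stat2*, *Spi1*, *Batf3*, *Tbk1*, *Ikbke* and *Irf2bp2*, and the gene nearest in pattern to each member. Some genes are not reported here. Cell type markers, genes that overlap a member and the few others outside this rule were chosen after their values were seen.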

Additional observations from a re-analysis of the deposited data

Results flagged for a closer look

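The knockdown effect on *Irf7* differed between treatments by a test of the difference itself: it was -0.72 on the log2 scale (the effect with IFN-β minus that without it, adjusted p = 0.0244, edgeR's quasi-likelihood test). Knockdown libraries were above control libraries in 3 of 3 runs of library codes without stimulation and in 0 of 3 with IFN-β. The labels do not call these runs pairs, and without pairing the ranges overlapped with IFN-β. Over the alternatives the adjusted p ranged from 4.54e-22 to 0.119. No other member was set apart in this way, and with 3 libraries a group, single libraries were not tested for standing apart.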

How the results depend on the processing

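The count of members called for the difference between treatments was 1, and it became 2 with DESeq2, with no filter on low counts and with a replicate block, through *Irf1*. It was 0 to 1 when 1 library was left out. Small knockdown effects that passed in no fit changed sign: *Irf5* with IFN-β was 0.0076 by library totals and 0.0047 in a fit of the compared groups alone, and between -0.070 and 0.0055 without 1 library. *Irf3* averaged over both treatments was 0.0079 with no filter and -0.036 to 0.016 without 1 library, *Irf3* with IFN-β -0.041 to 0.047, its difference between treatments -0.011 to 0.118, and *Irf5* averaged over both treatments -0.0038 to 0.056. Without 1 library the knockdown difference of the *Irf4* to *Irf8* ratio was 0.075 to 0.176 (exact permutation p = 0.04 without IFN-β replicate 1 of shControl, unadjusted), and that of *Irf1* to *Irf2* was -0.027 to 0.00696. The cause of these changes was not tested. Of the members' fold changes under alternatives, 807 kept direction and call, 14 lost a call, 8 gained one and 19 changed sign. Libraries of the same run of codes deviated together weakly, but all 18 correlations were positive (0.0276 to 0.146, median 0.0867). For 36 pairs of other runs they were -0.154 to 0.0565, with a median of -0.0436. An effect shared within runs was not tested. The labels name no pairs, so the main model took none, and a block for runs was one of the alternatives. With the replicate block, *Irf9* without stimulation (adjusted p = 0.0405) and *Irf1* for the difference between treatments (0.0228) gained a call, and the genes called for that difference rose from 11 higher and 122 lower to 86 and 339. They were 84 and 370 with DESeq2, 103 and 422 with no filter, 17 and 67 by library totals, and as few as 4 and 32 without unstimulated replicate 3 of shControl. The call for *Irf9* also passed without unstimulated replicate 2 of shControl (0.0494) or IFN-β replicate 2 of sh*Ppargc1b* (0.0274). Depth limited *Ifnb1*, at 24 counts or fewer.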

Other observations

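*Tcf4*, the E protein gene of plasmacytoid DCs, was higher with knockdown without stimulation (0.56 ± 0.07, adjusted p = 5.42e-05), differed by 0.07 ± 0.07 with IFN-β, and the difference between treatments was -0.49 ± 0.11 (adjusted p = 0.0438). *Siglech*, a defining marker of these cells, was not testable, and none of the other tested markers passed: *Ccr9* had knockdown differences of 0.28 without stimulation and 0.27 with IFN-β, *Spib* of 0.13 and -0.08, and *Cox6a2* of -0.45 and -0.21. Whether the levels of *Irf7* and *Tcf4* are related was not tested.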
